A study of Mus musculus with 8 samples.

Results

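A set of 10 genes that mark melanocytes or steer them was followed in the epidermis of mice whose hair growth had been restarted by depilation: the pigment genes Tyr, Tyrp1, Dct, Mlana and Slc45a2, the receptor Kit and its ligand Kitl, the transcription factors Sox10 and Mitf, and the receptor Mc1r. The members were all probe sets of the deposited table whose gene symbol is 1 of these 10. The rule found 21 probe sets for 9 of the 10 genes, out of 21556 probe sets with 1 gene name. Mlana was not found under its name, and no further probe set carried an older name of a member. The table has 22690 rows, fewer than the array type named in the methods carries, so shares over all probe sets refer to this table, and probe sets outside it were not analysed here.

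RNA came from epidermal sheets lifted off the dermis with dispase, 3 days post depilation (3dpd). The arrays analysed here were 3 from Tcl1-/- mice, which lack Tcl1, 3 from K14-TCL1 mice and 2 from wild type C57bl/6 (WT) mice. K14-TCL1 mice have the same Tcl1-/- background and a human TCL1A transgene behind the keratin 14 promoter, which is active in basal keratinocytes (KCs). All mice were depilated and all arrays are from 1 day, so these data hold no undepilated skin and no time course. The study calls the mice adult and no source used here gives an age in weeks, and the methods name 3 animals and 3 chips for each genotype.

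Melanocytes derive from the neural crest and live in the hair follicle, where a new growth phase calls them to divide and to load melanin into the growing hair. SOX10 and PAX3 switch on MITF, and MITF with SOX10 switches on the enzymes of pigment synthesis: tyrosinase (Tyr), the tyrosinase-related protein Tyrp1 and dopachrome tautomerase (Dct). KCs and dermal cells signal to them through KIT ligand (Kitl), which binds KIT, and through melanocortin, which binds MC1R and acts by cyclic AMP on the Mitf promoter.

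Promoters of Dct, Tyr, Tyrp1, Mc1r and Mitf hold letters through which this circuit is known to work, and are shown here for that. Of the pigment enzymes only Dct passed the intensity filter given below and was tested in the main analysis. No contrast in calls between Dct and Tyr, Tyrp1 or Mc1r is therefore read. RefSeq promoter windows of GRCm38.p6, 250 bases before to 50 after the annotated start, were matched by symbol for 7 of the member genes, in 10 windows. They were searched on both strands for CATGTG, the M-box core that MITF binds (CACATG on the other strand), for the palindromic E-box CACGTG, for ACAAAG, a SOX core (CTTTGT on the other strand), and for TGACGTCA, the full cyclic AMP response element. Of all 32851 RefSeq promoter windows of that length, 14.2% held the M-box core, 7.15% the E-box, 18.7% the SOX core and 1.79% the cyclic AMP response element. The Dct window held the M-box core at -232 and -150 and the SOX core at -192 and -141, counted from the annotated start to the first letter of the match. Below, the 250 bases before the Dct start (chr14:118052247-118052496, minus strand) have these 4 matches in capitals, 5′ to 3′, and no match overlaps another.
Dct: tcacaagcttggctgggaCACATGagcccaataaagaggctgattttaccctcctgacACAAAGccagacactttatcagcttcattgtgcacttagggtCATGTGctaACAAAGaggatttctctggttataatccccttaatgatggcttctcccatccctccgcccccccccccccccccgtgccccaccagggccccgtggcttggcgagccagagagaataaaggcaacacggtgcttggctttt

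Tyr, Tyrp1 and Mc1r also held an M-box core. It lay at -21 in Tyr (chr7:87493516-87493545, minus strand), at -46 in Tyrp1 (chr4:80834155-80834184, plus strand) and at -62 in Mc1r (chr8:123407008-123407037, plus strand), where a second copy lay at -51. The 30 bases around each are given 5′ to 3′ with the match in capitals.
Tyr: gaaaaagttagtCATGTGctttgcagaaga
Tyrp1: tggggagggagtCATGTGctgcctagtagt
Mc1r: acacatccctggCACATGcccatcatgtgg

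Mitf has 3 windows, and the most downstream of them held a cyclic AMP response element at -153 (chr6:97991619-97991648, plus strand), in capitals here.
Mitf: gaaaaaaagcaTGACGTCAagccagcaggg

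The Tyrp1 window also held a SOX core at -190. No E-box was found in any of the 10 windows, and the windows of Kit and Kitl held none of the 4 motifs. A match describes the letters and is no measured binding site.

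Values are RMA intensities, the brightness of a probe set after background correction, normalization between arrays and summary of its probes. Intensities of different probe sets are not comparable, so each is compared only with itself across arrays. Differences are between genotype means on the log2 scale, given ± SE, and a probe set was called at an adjusted p under 0.05 in limma's moderated test, adjusted by Benjamini-Hochberg over all 15372 probe sets whose highest genotype mean was at least 5 on the log2 scale. Of the 21 member probe sets, 10 passed that filter: 1 for Dct, 2 for Slc45a2, 3 for Kitl, 3 for Sox10 and 1 for Mitf. All probe sets of Tyr, Tyrp1, Kit and Mc1r lay under it. Array medians were nearly equal, between 6.52 and 6.55 on the log2 scale.

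All 9 measured KC markers passed the filter. Of 9 further melanocyte markers measured, 3 passed it: Pmel, Pax3 and Gpnmb. Oca2, Gpr143, Trpm1, Ednrb, Mlph and Tspan10 did not. In such bulk RNA fewer cells of a type and less RNA per cell cannot be told apart. The Tcl1 probe set read 32.2, 33.3 and 32.1 in Tcl1-/- arrays, 35.8, 30.6 and 30.7 in K14-TCL1 arrays, and 31.1 and 29.8 in WT arrays. Whether it lies in the deleted part was not tested, so it checks no label.

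In Tcl1-/- epidermis, 1 member probe set was higher than in WT, that of Dct, and 2 were lower, both of Kitl. In K14-TCL1 epidermis, Dct was also higher than in WT and no Kitl probe set was called. Between Tcl1-/- and K14-TCL1, 1 Kitl probe set was lower in Tcl1-/- and Dct was not called. Tyr, Tyrp1 and Mc1r were called in no comparison even with no filter, and Slc45a2, Sox10 and Mitf in none of the 3.

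These counts stood near the shares called over the whole table. Tcl1-/- against WT called 3 of 10 tested member probe sets, beside 22.7% of all tested probe sets (12.0% higher and 10.7% lower). K14-TCL1 against WT called 1 of 10, beside 17.9% (9.02% higher and 8.87% lower). Tcl1-/- against K14-TCL1 called 1 of 10, beside 23.0% (12.7% higher and 10.3% lower). The median difference of the tested members was -0.04 in each of the 3 comparisons, where that of all tested probe sets was 0.00, 0.00 and 0.01. In the 3 comparisons the arrays of the genotypes did not overlap for 5, 5 and 3 tested members, beside 55.5%, 48.8% and 41.3% of all tested probe sets. Both comparisons against WT share the same 2 WT arrays.

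**Figure D1:**
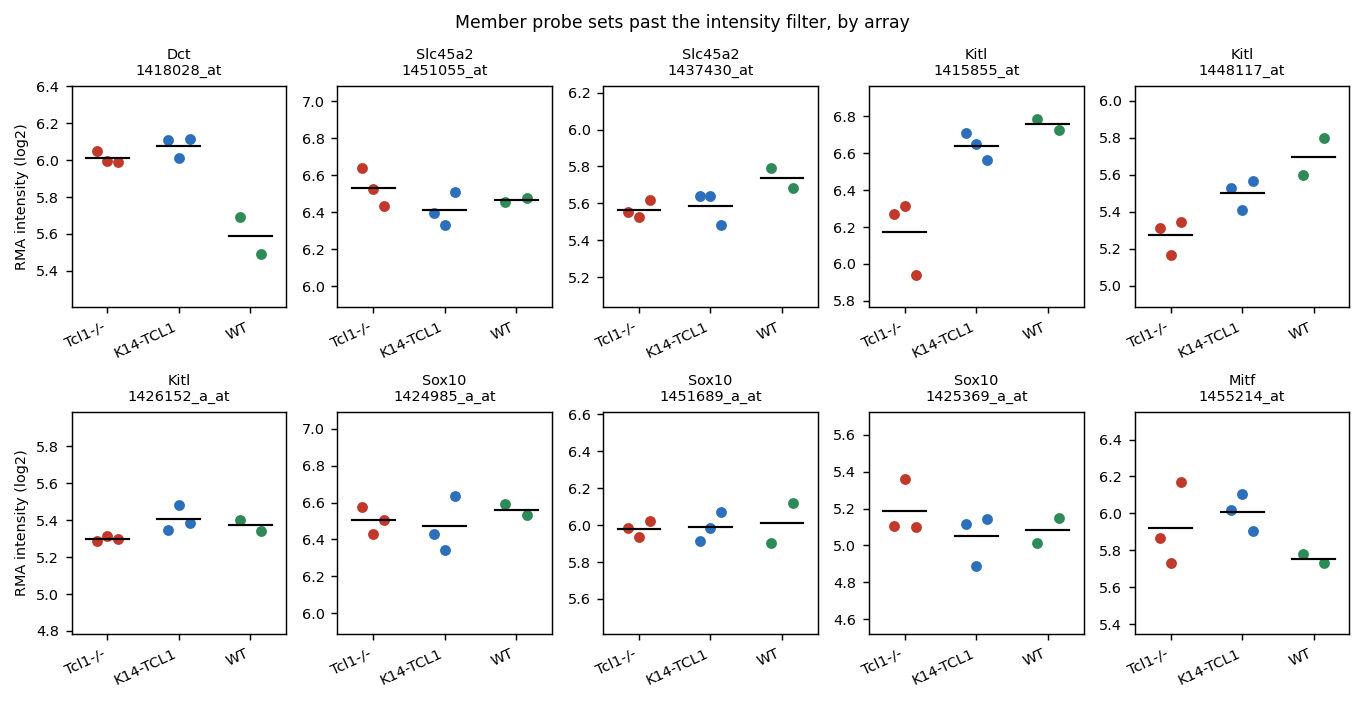
RMA intensity (log2, vertical axis, same span in each panel) of the 10 member probe sets past the filter, with 1 point for each array and a bar at the mean of Tcl1-/- (red, n = 3), K14-TCL1 (blue, n = 3) and WT (green, n = 2). The Dct arrays of both Tcl1-/- and K14-TCL1 lie above both WT arrays, and the Tcl1-/- arrays of Kitl 1415855_at lie under all others.

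Dct, the enzyme that converts dopachrome on the way to eumelanin and an early marker of melanoblasts, was the only pigment enzyme past the filter. It had a called difference. Its probe set 1418028_at read 66.3, 63.8 and 63.6 in Tcl1-/- arrays, 68.9, 64.5 and 69.4 in K14-TCL1 arrays, and 51.7 and 44.9 in WT arrays. Every array of the knockout background was above both WT arrays, and Tcl1-/- and K14-TCL1 overlapped. The mean was 64.6 ± 1.46 in Tcl1-/-, 67.6 ± 2.69 in K14-TCL1 (SD, n = 3 each) and 48.3 ± 4.77 in WT (SD, n = 2). Against WT the difference was 0.42 ± 0.06 in Tcl1-/-, or 1.34-fold (adjusted p = 0.00262), and 0.49 ± 0.06 in K14-TCL1, or 1.403-fold (adjusted p = 0.00195). Tcl1-/- minus K14-TCL1 was -0.07 ± 0.06 (95% interval -0.20 to 0.07, adjusted p = 0.454). The 2 WT arrays were the most spread of the 3 genotypes, and leaving out the lower of them (WT replicate 2) gave 0.32 for Tcl1-/- minus WT, with an adjusted p of 0.019.

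None of the other measured pigment genes had a called difference, and Tyr and Tyrp1 could be tested only with no filter. Slc45a2, a transporter that keeps the melanosome at a pH suited to tyrosinase, had 2 tested probe sets. Its 1437430_at read 47.0, 46.1 and 49.2 in Tcl1-/- arrays, 49.9, 49.9 and 44.7 in K14-TCL1 arrays, and 55.4 and 51.3 in WT arrays. Both WT arrays were above the other 6, but neither difference passed: -0.17 ± 0.06 for Tcl1-/- minus WT (adjusted p = 0.0891) and -0.15 ± 0.06 for K14-TCL1 minus WT (adjusted p = 0.141). Its 1451055_at read 99.6, 92.1 and 86.5 in Tcl1-/- arrays, 84.1, 80.6 and 91.1 in K14-TCL1 arrays, and 87.8 and 89.2 in WT arrays. There the genotypes overlapped, and the adjusted p values lay between 0.205 and 0.621.

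Tyr and Tyrp1 were read under the filter on all 8 arrays, so the deposited values give only a weak view of them. Tyr 1417717_a_at, the probe set that stands for the gene in the lists below, ran between 20.99 and 28.02 in Tcl1-/- arrays, 23.1 and 30.8 in K14-TCL1 arrays, and 22.4 and 23.8 in WT arrays, and the genotypes overlapped. Tyrp1, which stabilises tyrosinase and acts later in eumelanin synthesis, read 20.7, 20.01 and 17.6 in Tcl1-/- arrays, 22.4, 21.1 and 20.2 in K14-TCL1 arrays, and 16.6 and 19.2 in WT arrays at 1439409_x_at. The 3 K14-TCL1 arrays were above both WT arrays there and at 1415862_at, where they read between 12.7 and 14.3, against 11.5 and 12.0 in WT. With no filter, adjusted over all 21556 probe sets, these differences of 0.25 ± 0.09 and 0.22 ± 0.07 had adjusted p values of 0.131 and 0.0815. Tyrp1 1415861_at overlapped between all genotypes.

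Kitl, the KIT ligand that KCs display to melanocytes and that draws them to the epidermis and keeps them alive, was the member that separated Tcl1-/- from both other genotypes. Its probe set 1415855_at read 77.1, 79.5 and 61.5 in Tcl1-/- arrays, 104.6, 100.5 and 94.4 in K14-TCL1 arrays, and 110.5 and 105.7 in WT arrays. All 3 Tcl1-/- arrays were under the other 5, and the K14-TCL1 arrays lay under both WT arrays with a narrow gap. The mean was 72.7 ± 9.75 in Tcl1-/-, 99.8 ± 5.15 in K14-TCL1 (SD, n = 3 each) and 108.1 ± 3.37 in WT (SD, n = 2).

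The Tcl1-/- mean was 1.496-fold lower than that of WT, a difference of -0.58 ± 0.10 (adjusted p = 0.00556), and 1.38-fold lower than that of K14-TCL1, a difference of -0.47 ± 0.09 (adjusted p = 0.0098). K14-TCL1 minus WT was -0.12 ± 0.10 (95% interval -0.35 to 0.12, adjusted p = 0.475). Tcl1-/- replicate 3 was the lowest array, and without it the differences were -0.47 against WT (adjusted p = 0.00271) and -0.35 against K14-TCL1 (adjusted p = 0.00869). Both calls held in all 18 alternative settings run, with an adjusted p of at most 0.0486 and 0.0335.

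Another Kitl probe set had the same order of genotypes, and the third did not. Kitl 1448117_at read 39.8, 35.9 and 40.6 in Tcl1-/- arrays, 46.2, 42.5 and 47.3 in K14-TCL1 arrays, and 48.5 and 55.6 in WT arrays, with no overlap between any 2 genotypes. Tcl1-/- minus WT was -0.42 ± 0.08 (adjusted p = 0.00693), K14-TCL1 minus WT was -0.20 ± 0.08 (adjusted p = 0.128) and Tcl1-/- minus K14-TCL1 was -0.23 ± 0.07 (adjusted p = 0.0523). Without WT replicate 2, the brighter WT array, the first was -0.32 and not called (adjusted p = 0.0593).

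Kitl 1426152_a_at read 39.1, 39.9 and 39.3 in Tcl1-/- arrays, 40.7, 44.7 and 41.7 in K14-TCL1 arrays, and 42.3 and 40.6 in WT arrays. The Tcl1-/- arrays were again the lowest, but by little: Tcl1-/- minus WT was -0.07 ± 0.05 (95% interval -0.19 to 0.04, adjusted p = 0.334) and Tcl1-/- minus K14-TCL1 was -0.10 ± 0.04 (adjusted p = 0.125). That interval against WT did not overlap the one of 1448117_at, which ran between -0.61 and -0.24. Which Kitl transcripts each probe set reads was not analysed here. The fourth, 1415854_at, lay under the filter at 14.2, 12.9 and 12.0 in Tcl1-/- arrays, 15.4, 16.0 and 14.7 in K14-TCL1 arrays, and 18.7 and 13.0 in WT arrays, with overlap between Tcl1-/- and WT.

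Kit, the receptor for that ligand on melanocytes and mast cells, was dim at both of its probe sets. Kit 1415900_a_at read between 18.3 and 21.2 on all 8 arrays. Kit 1452514_a_at read 7.57, 8.11 and 7.45 in Tcl1-/- arrays, 8.76, 8.46 and 10.2 in K14-TCL1 arrays, and 7.17 and 6.205 in WT arrays, so that the 3 genotypes did not overlap. It was not tested in the main analysis. With no filter it was among the 9.47% of all 21556 probe sets called in K14-TCL1 against WT, but it lies near the lowest intensity of the table, and nothing is read from that call. At 1415900_a_at K14-TCL1 and WT overlapped. Of 9 mast cell markers measured, only Hdc passed the filter, and it was not called. The summed intensity of the 9 was 164.3 to 170.5 in Tcl1-/-, 163.1 to 174.3 in K14-TCL1 and 170.6 to 171.4 in WT. All of them but Hdc lay under the filter, so that sum says little about mast cells.

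**Figure D2:**
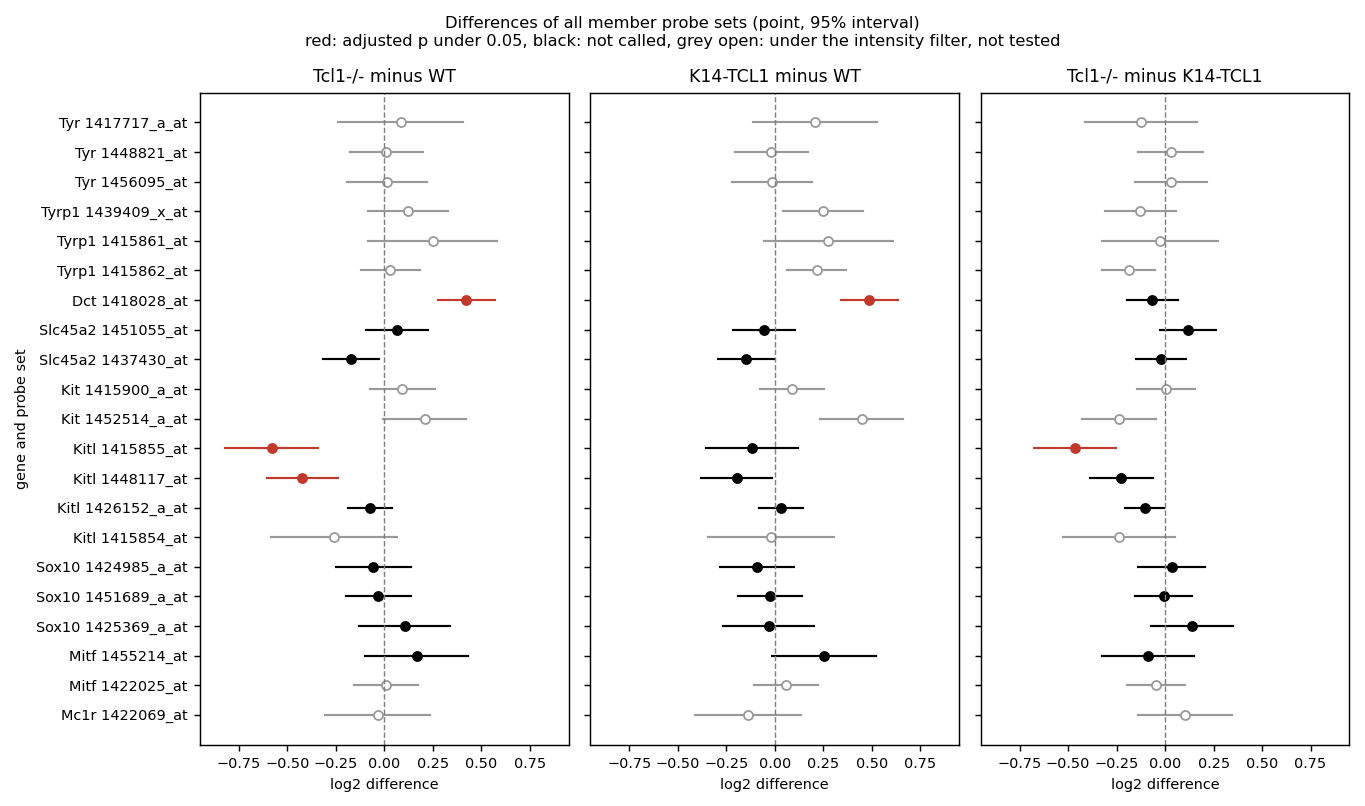
Log2 difference (horizontal axis) of all 21 member probe sets (rows) in Tcl1-/- minus WT, K14-TCL1 minus WT and Tcl1-/- minus K14-TCL1, as a point with its 95% interval from the fit. Called probe sets are red, tested ones that were not called are black, and those under the filter are open and grey. Dct is red to the right in both comparisons with WT, and Kitl 1415855_at is red to the left in both comparisons of Tcl1-/-.

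Mitf, the master regulator of the melanocyte lineage, was variable among Tcl1-/- arrays. Its tested probe set, 1455214_at, read 58.3, 53.0 and 72.0 in Tcl1-/- arrays, 64.7, 68.8 and 60.0 in K14-TCL1 arrays, and 54.9 and 53.1 in WT arrays. The K14-TCL1 arrays were above both WT arrays, and the Tcl1-/- arrays spanned the range of both. No difference passed: 0.17 ± 0.12 for Tcl1-/- minus WT (adjusted p = 0.350), 0.25 ± 0.12 for K14-TCL1 minus WT (adjusted p = 0.170) and -0.09 ± 0.10 for Tcl1-/- minus K14-TCL1 (adjusted p = 0.589). Without Tcl1-/- replicate 3, the high array that widens the shared spread, the second reached an adjusted p of 0.0499. Mitf 1422025_at lay between 9.22 and 10.8 on all arrays.

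Sox10, the neural crest factor upstream of Mitf that Schwann cells also express, was read at like levels in the 3 genotypes by each of its 3 tested probe sets. At 1424985_a_at it averaged 90.9 ± 4.52 in Tcl1-/-, 89.0 ± 9.51 in K14-TCL1 (SD, n = 3 each) and 94.5 ± 2.87 in WT (SD, n = 2), and Tcl1-/- minus WT had a 95% interval of -0.25 to 0.14. The arrays of the genotypes overlapped at all 3 probe sets in all 3 comparisons, and the adjusted p values lay between 0.313 and 0.946. Of 8 tested Schwann cell markers, 1 was higher and 1 lower in each of Tcl1-/- and K14-TCL1 against WT. Mc1r, the melanocortin receptor, lay under the filter at 18.1, 19.3 and 24.2 in Tcl1-/- arrays, 17.6, 19.1 and 20.5 in K14-TCL1 arrays, and 21.2 and 20.6 in WT arrays. Its Tcl1-/- arrays spanned the WT values, while its K14-TCL1 arrays lay just under both.

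The other genes of the pathway were counted over lists that took 1 probe set per gene, the brightest, from the same fit. They include the members that passed. Most of these counts are small and moved by over 1.5 times when 1 array was left out. They are read only beside the percent of all tested probe sets called, given above for each comparison. That percent counts every tested probe set of a gene. In a fit on 1 probe set per gene, 9731 in all, 26.6% were called in Tcl1-/- against WT. There 21.5% were called in K14-TCL1 against WT and 26.6% in Tcl1-/- against K14-TCL1. The median differences of the 7 lists were small: between -0.09 and 0.09 for Tcl1-/- minus WT, -0.10 and 0.04 for K14-TCL1 minus WT, and -0.08 and 0.08 for Tcl1-/- minus K14-TCL1. Of 6 tested genes of melanosome structure and pigment chemistry, Dct was higher and Gpnmb lower in Tcl1-/- against WT, Dct alone was called in K14-TCL1 against WT, and Gpnmb alone, lower, in Tcl1-/- against K14-TCL1.

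Gpnmb, a glycoprotein of melanosomes that macrophages and dendritic cells also make, had the largest difference from WT of any gene in the 7 lists. It read 108.0, 106.1 and 82.6 in Tcl1-/- arrays, 189.7, 181.0 and 196.2 in K14-TCL1 arrays, and 181.9 and 171.8 in WT arrays. The Tcl1-/- arrays were far under the others, while K14-TCL1 and WT overlapped. Tcl1-/- minus WT was -0.85 ± 0.11 (adjusted p = 0.00108) and Tcl1-/- minus K14-TCL1 was -0.94 ± 0.10 (adjusted p = 0.00054), and both calls held in all 19 alternatives. Pmel, the fibril protein of the melanosome, read 64.1, 66.3 and 55.4 in Tcl1-/- arrays, 64.3, 62.0 and 64.2 in K14-TCL1 arrays, and 50.8 and 62.5 in WT arrays, and was called in no comparison.

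Of 14 tested genes that carry and build melanosomes, 3 were higher and 0 lower in Tcl1-/- against WT, 1 was higher and 0 lower in K14-TCL1 against WT, and 2 were higher and 1 lower in Tcl1-/- against K14-TCL1. Calls against WT were close to the threshold. Rab32, a small GTPase that brings enzymes to the melanosome, was the 1 called in K14-TCL1 (adjusted p = 0.0411, kept in 10 of 18 alternatives) and was also counted in Tcl1-/- (adjusted p = 0.0499, kept in 7 of 18). Ap3b1, a subunit of the adaptor that sorts cargo to lysosome-related organelles, was counted in Tcl1-/- against WT (adjusted p = 0.0198) and was lost without any single Tcl1-/- or WT array. Lyst, which sets the size of such organelles, was 0.27 ± 0.04 higher in Tcl1-/- than in K14-TCL1 (adjusted p = 0.00301), and Ap3b1 was 0.17 ± 0.03 higher (adjusted p = 0.011). Of 8 lineage regulators, 1 was higher and 1 lower in Tcl1-/- against WT. These were Erbb3, a neuregulin receptor that KCs also express, at 0.20 ± 0.04 (adjusted p = 0.00634, lost at 0.0528 without WT replicate 1), and Snai2, a repressor needed by migrating melanoblasts, at -0.20 ± 0.05 (adjusted p = 0.017, lost without Tcl1-/- replicate 1 or 2 or WT replicate 2). In K14-TCL1 against WT, 1 of the 8 was lower, again Snai2 (lost without WT replicate 2), and in Tcl1-/- against K14-TCL1, 2 were higher, Erbb3 and Tfeb, the last lost without most single arrays.

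Of 13 tested ligands and antagonists that act on melanocytes, 4 were higher and 3 lower in Tcl1-/- against WT, beside 12.0% and 10.7% of all tested probe sets, and 6 were not called. Of the same 13, 1 was higher and 0 lower in K14-TCL1 against WT, and 2 were higher and 3 lower in Tcl1-/- against K14-TCL1. With 1 array left out, the 4 became 0 to 3, the lowest without WT replicate 2. Kitl was among the lower ones in both comparisons of Tcl1-/-, and so was Il1a, an interleukin that KCs store, which was named after its values were seen.

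Edn1, endothelin 1, a peptide by which KCs stimulate melanocytes, was among the higher ones against WT. It read 82.0, 87.3 and 77.2 in Tcl1-/- arrays, 64.2, 64.8 and 86.3 in K14-TCL1 arrays, and 57.9 and 54.1 in WT arrays. Tcl1-/- was 0.55 ± 0.12 higher than WT (adjusted p = 0.0147), a call lost without either WT array (adjusted p up to 0.095). Bmp4, a growth factor that holds hair follicles at rest, was the gene called in K14-TCL1 against WT, at 0.38 ± 0.09 (adjusted p = 0.0217, lost without either WT array). Wnt10b, a WNT ligand of the early hair growth phase, was 0.24 ± 0.05 higher in Tcl1-/- than in K14-TCL1 (adjusted p = 0.0125), and its call against WT (adjusted p = 0.0263) was kept in 11 of 17 alternatives. That of Foxn1, a transcription factor of hair KCs that is also in the hair matrix list, was kept in 8 of 18 (adjusted p = 0.0473).

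**Figure D3:**
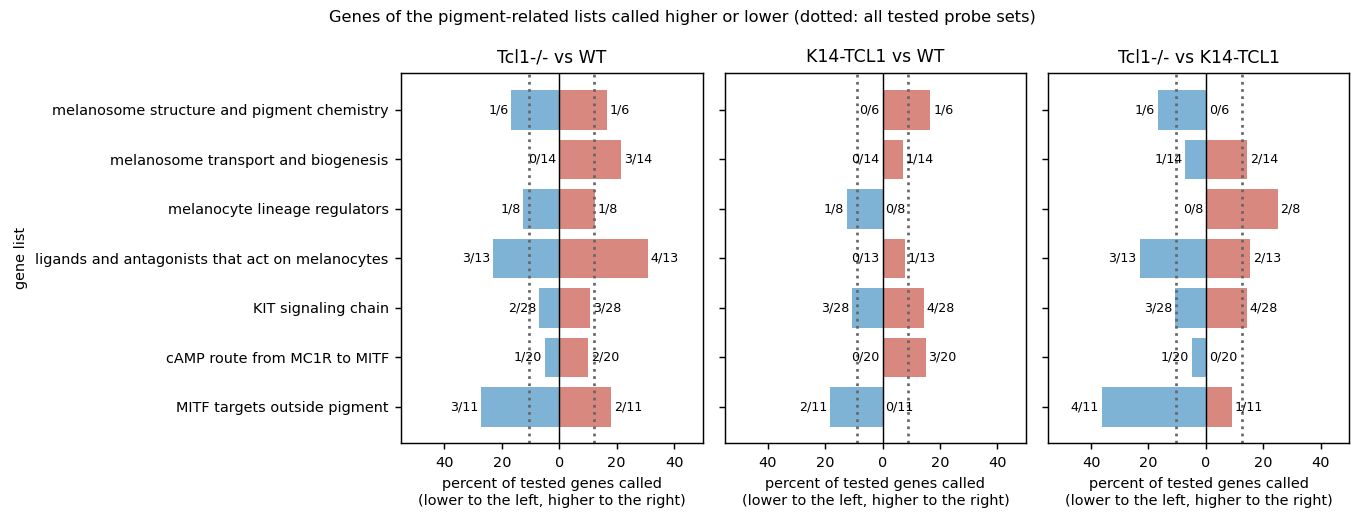
Percent of the tested genes of 7 lists called lower (blue, to the left) and higher (red, to the right) in the 3 comparisons, with the counts beside the bars and dotted lines at the percent of all tested probe sets called in that direction. Ligands and antagonists that act on melanocytes had 4 of 13 genes higher and 3 of 13 lower in Tcl1-/- against WT, where 12.0% and 10.7% of all tested probe sets were called.

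Of 28 tested genes in the chain behind KIT, 3 were higher and 2 lower in Tcl1-/- against WT. In K14-TCL1 against WT, 4 were higher and 3 lower, and in Tcl1-/- against K14-TCL1 also 4 higher and 3 lower. The shares called in these comparisons were 22.7%, 17.9% and 23.0% over all tested probe sets. With 1 probe set per gene they were 26.6%, 21.5% and 26.6%. Sos1, the exchange factor that loads RAS, was 0.35 ± 0.05 higher in Tcl1-/- than in K14-TCL1 (adjusted p = 0.00303), and Gab2, a docking adaptor, was 0.22 ± 0.04 higher (adjusted p = 0.00582). Map2k1, the kinase that activates ERK, was 0.26 ± 0.05 higher in Tcl1-/- than in WT (adjusted p = 0.00689, lost at 0.0601 without WT replicate 2).

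Adcy7 and Adcy9, adenylyl cyclases that make cyclic AMP, were higher in both genotypes of the knockout background. Adcy7 read 193.0, 193.3 and 177.1 in Tcl1-/- arrays, 167.4, 188.3 and 153.2 in K14-TCL1 arrays, and 119.3 and 121.9 in WT arrays, with every array of Tcl1-/- and K14-TCL1 above both WT arrays. Its difference from WT was 0.64 ± 0.08 in Tcl1-/- (adjusted p = 0.00115) and 0.49 ± 0.08 in K14-TCL1 (adjusted p = 0.00631, lost at 0.0524 without WT replicate 1). Adcy9 was 0.25 ± 0.05 higher in Tcl1-/- (adjusted p = 0.00775, lost at 0.0694 without WT replicate 2) and 0.38 ± 0.05 higher in K14-TCL1 (adjusted p = 0.00167). In all, of 20 tested genes between MC1R and MITF, 2 were higher and 1 lower in Tcl1-/- against WT, 3 higher and 0 lower in K14-TCL1 against WT, and 0 higher and 1 lower in Tcl1-/- against K14-TCL1. Over all tested probe sets 22.7%, 17.9% and 23.0% were called in these comparisons. The median differences of the 20 genes were -0.01, -0.03 and 0.01, so the list did not shift as a whole.

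Of 11 tested MITF targets outside pigment synthesis, 2 were higher and 3 lower in Tcl1-/- against WT, 0 higher and 2 lower in K14-TCL1 against WT, and 1 higher and 4 lower in Tcl1-/- against K14-TCL1. Hif1a, the oxygen-sensing transcription factor, which KCs express widely, read 1088, 1093 and 1104 in Tcl1-/- arrays, 1376, 1443 and 1355 in K14-TCL1 arrays, and 1533 and 1598 in WT arrays. The 3 genotypes did not overlap, and Tcl1-/- was the lowest, with -0.52 ± 0.04 for Tcl1-/- minus WT (adjusted p = 0.000108) and -0.35 ± 0.04 for Tcl1-/- minus K14-TCL1 (adjusted p = 0.000822). Lig1, a DNA ligase of replication, and Ccnd1, cyclin D1, were lower in Tcl1-/- than in K14-TCL1, with differences of -0.31 ± 0.05 (adjusted p = 0.00482) and -0.33 ± 0.06 (adjusted p = 0.00492).

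Markers of other cells of the sheet also differed between the genotypes. Each marker gene was again read at its brightest probe set only. The marker counts here and in the next paragraph are read beside the shares over all tested probe sets, several for some genes. These were 12.0% higher and 10.7% lower in Tcl1-/- against WT, and 9.02% and 8.87% in K14-TCL1 against WT. In Tcl1-/- against K14-TCL1 they were 12.7% and 10.3%. Of 9 tested epidermal KC markers, 0 were higher and 2 lower in Tcl1-/- against WT, 0 higher and 4 lower in K14-TCL1 against WT, and 4 higher and 1 lower in Tcl1-/- against K14-TCL1, with a summed intensity of 92510 to 93330 in Tcl1-/-, 87980 to 88610 in K14-TCL1 and 94500 to 95210 in WT. The 4 lower in K14-TCL1 against WT became 1 without either WT array. Ivl, involucrin of the cornified envelope, differed from WT by -0.43 ± 0.04 in Tcl1-/- (adjusted p = 0.000291) and by -0.59 ± 0.04 in K14-TCL1 (adjusted p = 9.61e-05). For the protein, the study reported by Western blot more involucrin than WT in Tcl1-/- and less in K14-TCL1. In Tcl1-/- the RNA here and that protein result thus go opposite ways. Itga6, an integrin of basal KCs, differed from WT by -0.41 ± 0.05 in Tcl1-/- (adjusted p = 0.000992) and by -0.25 ± 0.05 in K14-TCL1 (adjusted p = 0.0135, lost without either WT array).

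Of 8 tested Langerhans cell markers, 7 were higher and 0 lower in Tcl1-/- against WT, 6 and 0 in K14-TCL1 against WT, and 6 and 0 in Tcl1-/- against K14-TCL1. Without WT replicate 2, only 1 was higher in K14-TCL1 against WT. Their summed intensity was 10730 to 11160 in Tcl1-/-, 9051 to 9076 in K14-TCL1 and 7806 to 8079 in WT. Their median difference was 0.47 for Tcl1-/- minus WT, 0.21 for K14-TCL1 minus WT and 0.19 for Tcl1-/- minus K14-TCL1. Of 9 tested markers of the outer root sheath and bulge, where melanocyte stem cells lie, 5 were higher and 2 lower in Tcl1-/- against WT, 5 higher and 1 lower in K14-TCL1 against WT, and 1 higher and 0 lower in Tcl1-/- against K14-TCL1. The 5 in K14-TCL1 against WT became 3 without WT replicate 1 and 2 without WT replicate 2. The summed intensity of all 10 measured bulge markers, Postn among them, was 15480 to 15870 in Tcl1-/-, 16260 to 16630 in K14-TCL1 and 16570 to 16620 in WT. Of 6 tested hair matrix and hair shaft markers, 2 were higher in Tcl1-/- against WT, 1 in K14-TCL1 against WT and 3 in Tcl1-/- against K14-TCL1 (Msx2, Dlx3 and Foxn1, each lost without some single arrays), with 0 lower. Of 5 tested epidermal T cell markers, 2 were higher in Tcl1-/- against WT and 3 in K14-TCL1 against WT, with 0 lower in either, and 0 were higher and 1 lower in Tcl1-/- against K14-TCL1. Of 4 tested fibroblast markers, 2 were lower in each of Tcl1-/- and K14-TCL1 against WT, Postn, which is also in the bulge list, and Fbln1 (in K14-TCL1 lost without either WT array), while Col1a2 and Dcn were not called. Fbln1 was also lower in Tcl1-/- than in K14-TCL1. The summed intensity of all 10 fibroblast markers was 2671 to 2809 in Tcl1-/-, 2891 to 3039 in K14-TCL1 and 5430 to 5495 in WT, and nearly all of it was Postn, which averaged 2479 in Tcl1-/- arrays, 2666 in K14-TCL1 arrays and 5131 in WT arrays (geometric means). The part of these cells in the differences of Dct, Kitl and Gpnmb was not tested. None of the 2 tested dermal papilla markers was called.

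The bulge markers moved in both directions against WT. Postn was among those that fell, with -1.05 for Tcl1-/- minus WT (adjusted p = 2.29e-06) and -0.94 for K14-TCL1 minus WT (adjusted p = 7.58e-06). Those that rose included Krt15, a keratin taken here as a bulge marker, though which cells of the sheet carried it was not tested. It read 8234, 8225 and 8171 in Tcl1-/- arrays, 8801, 8776 and 8572 in K14-TCL1 arrays, and 6029 and 6111 in WT arrays. Every array of Tcl1-/- and K14-TCL1 was above both WT arrays. The Krt15 difference was 0.44 ± 0.04 for Tcl1-/- minus WT (adjusted p = 0.000106) and 0.52 ± 0.04 for K14-TCL1 minus WT (adjusted p = 7.42e-05). Lhx2, a transcription factor of hair follicle stem cells, was 0.66 ± 0.09 higher in Tcl1-/- than in WT (adjusted p = 0.00152) and differed by 0.65 ± 0.09 in K14-TCL1 minus WT (adjusted p = 0.00265).

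Genes with the most similar pattern were ranked by Pearson's r over the 8 arrays among 520 genes whose genotype means spanned at least 0.5 on the log2 scale. The arrays share the same 3 genotype means, so r is a description and carries no p. The mean profile of Tyr, Tyrp1, Dct and Slc45a2 was most like Calhm5 (r = 0.911), Rsad2 (0.883), Trim30a (0.858), Lmo1 (0.851) and Krt15 (0.851). Rsad2 and Trim30a are known as interferon-induced genes. Of the 4 genes in that mean, Tyr and Tyrp1 lay under the filter, and only Dct had a called difference. The ranking is therefore not read as likeness to the pigment genes as a group. Kit also lay under the filter, and no genes are named by likeness to it.

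Kitl at 1415855_at had much closer ones, among them Smim3 (r = 0.956), Pdpn (0.952) and Cd5 (0.948). All 3 were lowest in Tcl1-/-. Pdpn, podoplanin, a membrane glycoprotein of activated KCs and lymphatic vessels, averaged 78.4 in Tcl1-/- arrays, 140.9 in K14-TCL1 arrays and 133.8 in WT arrays (geometric means).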

How the data were processed

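Biotin-labelled epidermal RNA (Tcl1-/-, n = 3; K14-TCL1, n = 3; WT, n = 2) was hybridized by the authors to Affymetrix mouse arrays. The deposited values are RMA intensity values on the linear scale, as the submitters' notes name RMA (version not given in the sources used here). They ran between 4.92 and 20951.9 and were taken to log2 with no pseudocount. RMA keeps no count of molecules and leaves background in dim probe sets, which compresses their differences. The number of arrays limits precision.

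Of 22690 rows, those of controls (64), of no gene (492) and of more than 1 gene (578) were dropped. Names were updated with RefSeq (GRCm38.p6): 19478 were current, 1633 were replaced and 445 kept as given. A mean per genotype was fitted over all 8 arrays in limma 3.58.1 (R 4.3.3), with 5 residual and 3.23 prior degrees of freedom, 2-sided, on probe sets rather than genes. The fit was also run on simulated data. Figures used matplotlib 3.10.9.

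The members and lists were chosen with earlier results of these data known. Named genes are all members, up to 4 genes of each list by smallest p, and the 5 most similar to each pattern. Some genes that this rule would name are not reported here. Same-numbered arrays deviated together little (r between -0.06 and 0.16). The 2 WT arrays deviate from their mean by equal amounts in opposite directions, so these values cannot settle whether numbers pair arrays. The main fit used no pairing. No scan date was given in the sources used here. The methods name a strain for WT only. Any difference in strain, litter or preparation cannot be told apart from genotype. The p-values set genotype means against a spread between arrays that is pooled over the 3 genotypes and moderated by that of all tested probe sets. Each genotype gave 2 or 3 arrays to it.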

Additional observations from a re-analysis of the deposited data

How the results depend on the processing

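Of 513 differences of member probe sets under alternative settings, 506 kept direction and call, 1 lost a call (Kitl 1448117_at, above), 6 gained one and 0 called differences turned sign. Among differences called under neither setting, 14 turned sign. The calls of Dct and of Kitl 1415855_at held throughout. Members called in K14-TCL1 against WT were 2 with no filter, through a Kit probe set near the lowest intensity of the table, and 1 to 2 with 1 array left out. In Tcl1-/- against K14-TCL1 they were 2 after a second quantile normalization and 2 with only both genotypes compared in the fit, through Kitl 1448117_at, and 1 to 2 with 1 array left out.

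The share of all tested probe sets called moved more. For Tcl1-/- against WT it was 13.0% with no filter and 11.0% to 26.3% with 1 array left out, lowest without WT replicate 1 and then WT replicate 2 (11.8%). For K14-TCL1 against WT it was 9.47% with no filter, 11.6% with only both genotypes in the fit, 11.9% with the replicate block and 6.48% to 18.4% with 1 array left out, lowest without WT replicate 1 and then WT replicate 2 (7.33%). For Tcl1-/- against K14-TCL1 it was 12.9% with no filter and 14.9% to 23.0% with 1 array left out, lowest without Tcl1-/- replicate 1. The criteria of the methods, which keep 369 probe sets that vary most, called 74.3%, 61.2% and 61.8% in the same order. They keep 0 member probe sets, so no count of members was had. The replicate block changed no call of a member. The alternatives for the gene lists and their named genes were chosen after seeing the data. With 2 WT arrays, leaving 1 out assumes that the other varies like the other genotypes.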
